A study of Caenorhabditis elegans with 4 samples.

Results

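The regions described here are the places on chromosome IV where RNA polymerase II (Pol II) was called inside the pair of broad domains that hold most piRNA loci of Caenorhabditis elegans. They were chosen by position, as regions of the combined Pol II list on chromosome IV with a midpoint from 4500000 to 7000000 (domain 1) or from 13500000 to 17200000 (domain 2) in the WS220 build. By this rule 564 of 9051 regions belonged to the domains, 286 to domain 1 and 278 to domain 2, which was 26.7% of the 2111 regions on chromosome IV. The measurement is chromatin immunoprecipitation and sequencing (ChIP-seq), in which DNA crosslinked to a protein is pulled down with an antibody and sequenced. The antibody, 8WG16, binds the C-terminal repeat of AMA-1, the largest subunit of Pol II. The material was whole L3 (third-stage larval) hermaphrodites grown at 20 °C, with 2 Pol II ChIP replicates and 2 inputs. All samples share the background allele unc-119(ed3) on chromosome III and the transgene wgIs54, which carries unc-119(+) and egl-5 fused to TY1, EGFP and 3xFLAG and was introduced by bombardment. The strain is named OP54 in the labels, whose strain text nevertheless describes an EOR-1 fusion, while OP81 stands in the deposited sample table. This was not resolved. The material came from whole animals, so Pol II bound in few cells and weakly bound Pol II in many cells cannot be told apart.

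Worm piRNAs, the 21U-RNAs, are short germline RNAs that are loaded onto the Argonaute protein PRG-1 and guide the silencing of transposons and other foreign sequence. Unlike fly piRNAs, which are cut from long precursors, most are made from separate short Pol II transcripts, each with its own small upstream motif. The loci are scattered through introns and intergenic DNA of 2 broad domains of chromosome IV, among ordinary protein-coding genes. In the RefSeq gene table of the WBcel235 assembly, 14714 of 15363 piRNA genes (95.8%) are placed on chromosome IV. Regions could not be assigned to piRNA or protein-coding genes, because that table is of another build than the regions and no WS220 sequence was used. The domains are therefore described by the position, width and strength of their Pol II regions, and no sequence is printed.

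Replicate 1 had 3262273 uniquely mapped ChIP reads and replicate 2 had 4623128. The authors called 1 list of regions for each replicate and a combined list on both replicates merged, all against the same merged input, so the 3 lists share data. Strength is the authors' q-value for each region, and all listed q-values lie below 0.01. Ranks recovered from tied q-values placed the first listed region at rank 263, 153 and 72 in the combined, replicate 1 and replicate 2 lists, so 262, 152 and 71 stronger regions were not analysed here. Values are from the combined list where no list is named. With 2 replicates a two-sided exact sign-flip test cannot go below p = 0.5, so no p-value is given, and intervals cover counting error only. Nothing in the labels says that the replicates are separate cultures, so the spread between them may be technical.

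Pol II regions were sparser in domain 2 than in the rest of chromosome IV in all 3 lists, and domain 1 lay in between. Domain 2 held 75.1 combined regions per Mb (exact Poisson 95% interval 66.6 to 84.5), domain 1 held 114.4 (101.5 to 128.5), and the rest of the chromosome held 137.2 (130.4 to 144.2). In replicate 1 the values were 55.7 in domain 2, 88.0 in domain 1 and 114.1 in the rest. In replicate 2 they were 50.5, 84.0 and 101.3. The intervals of domain 2 did not reach those of domain 1 or of the rest in any list. These intervals take regions as independent and do not cover uneven spacing, and windows of 100 kb in domain 2 held 0 to 22 combined regions. As a ratio to the rest of the chromosome, domain 2 stood at 0.548 in the combined list and at 0.493 ± 0.00794 in the replicates (mean ± SD, n = 2). Domain 1 stood at 0.834 in the combined list and at 0.800 ± 0.0413 in the replicates.

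The rest of the chromosome was itself uneven. The 6.5 Mb between the domains held 144.9 combined regions per Mb (135.8 to 154.5) and the 4.5 Mb to the left of domain 1 held 127.3 (117.1 to 138.2). The interval of domain 1 overlapped that of the part to its left in every list, and lay below that of the part between the domains in every list. Against the whole rest it lay below in the combined list and replicate 1, and overlapped in replicate 2 (73.0 to 96.2 against 95.5 to 107.3). The short right end beyond domain 2 held 116.2 regions per Mb on 0.275 Mb, with a wide interval (79.5 to 164.0). Domain 2 had the lowest density of the 5 stretches in each list, although in the combined list its interval overlapped that of the short right end. Over all chromosomes the lists held 90.4, 73.5 and 71.0 regions per Mb (combined, replicate 1, replicate 2), above domain 2 and, in the same order of lists, below the 114.4, 88.0 and 84.0 of domain 1. Chromosomes V and X were sparser than domain 2 in each list, for example with 47.0 and 53.5 combined regions per Mb. Chromosome II was sparser in the combined list (66.6) and in replicate 1 (49.7), but not in replicate 2 (51.0 against 50.5).

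**Figure D1:**
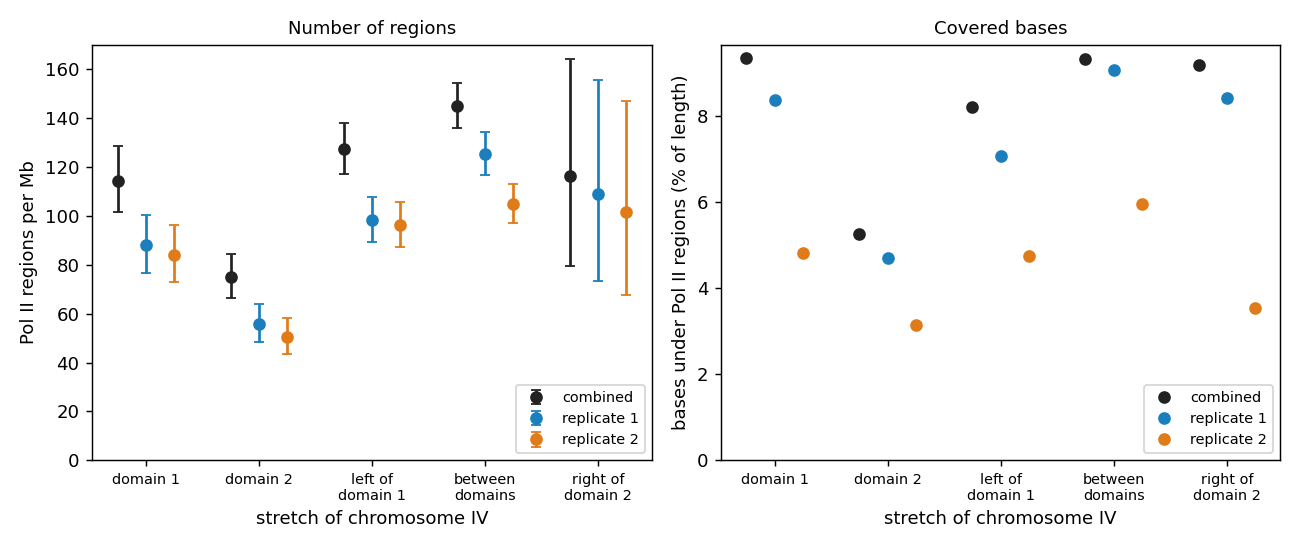
Pol II regions per Mb (left, with exact Poisson 95% intervals) and bases under regions as a percentage of length (right) in 5 stretches of chromosome IV, for the combined list and each replicate list. Domain 2 is lowest in both panels in all lists, at 75.1, 55.7 and 50.5 regions per Mb, whereas domain 1 is close to the part left of it.

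Counted in bases, domain 2 remained low and domain 1 did not differ in a stable direction. Regions covered 195.0 kb of domain 2 in the combined list, or 5.27% of its length, against 8.88% of the rest of the chromosome. In the replicates 4.71% and 3.14% of domain 2 were covered, against 8.26% and 5.43% of the rest. The ratio was 0.594 in the combined list and 0.574 ± 0.00600 in the replicates (mean ± SD, n = 2). Domain 1 was covered to 9.35% in the combined list and to 8.38% and 4.83% in the replicates, ratios of 1.05, 1.01 and 0.889 to the rest. A single region of 30469 bp made up 13.0% of the covered bases of domain 1 in the combined list, and without it the domain was covered to 8.13%, a ratio of 0.916. Replicate 1 covered more bases than replicate 2 in both domains, as it did elsewhere on the chromosome. In both replicates at once, 3.92% of domain 1, 2.21% of domain 2 and 3.88% of the rest were covered, which again set domain 2 apart and left domain 1 level with the rest.

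Inside each domain the density was not even. In the 5 windows of 500 kb of domain 1, the combined list held 28, 52, 81, 55 and 70 regions from left to right. Replicate 1 held 28, 48, 64, 35 and 45 and replicate 2 held 18, 33, 75, 37 and 47. The window at 5500001 to 6000000 was the fullest and the leftmost window the emptiest in each list. The fullest window was covered to 12.6% of its bases in the combined list and to 13.4% and 10.1% in the replicates, above the median of the 22 full windows outside the domains (8.85%, 7.89% and 5.33%). In the 7 full windows of domain 2 the combined list held 47, 46, 57, 35, 26, 27 and 26 regions. Replicate 1 held 37, 34, 50, 25, 15, 17 and 18, and replicate 2 held 36, 36, 37, 20, 18, 15 and 18. The low density of domain 2 was thus strongest from 15.5 to 17.0 Mb, where no window of any list held more than 27 regions, below the emptiest window outside the domains in the combined list (42) and in replicate 1 (31). In replicate 2 these 3 windows held 15 to 18 regions and the emptiest outside window held 24.

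**Figure D2:**
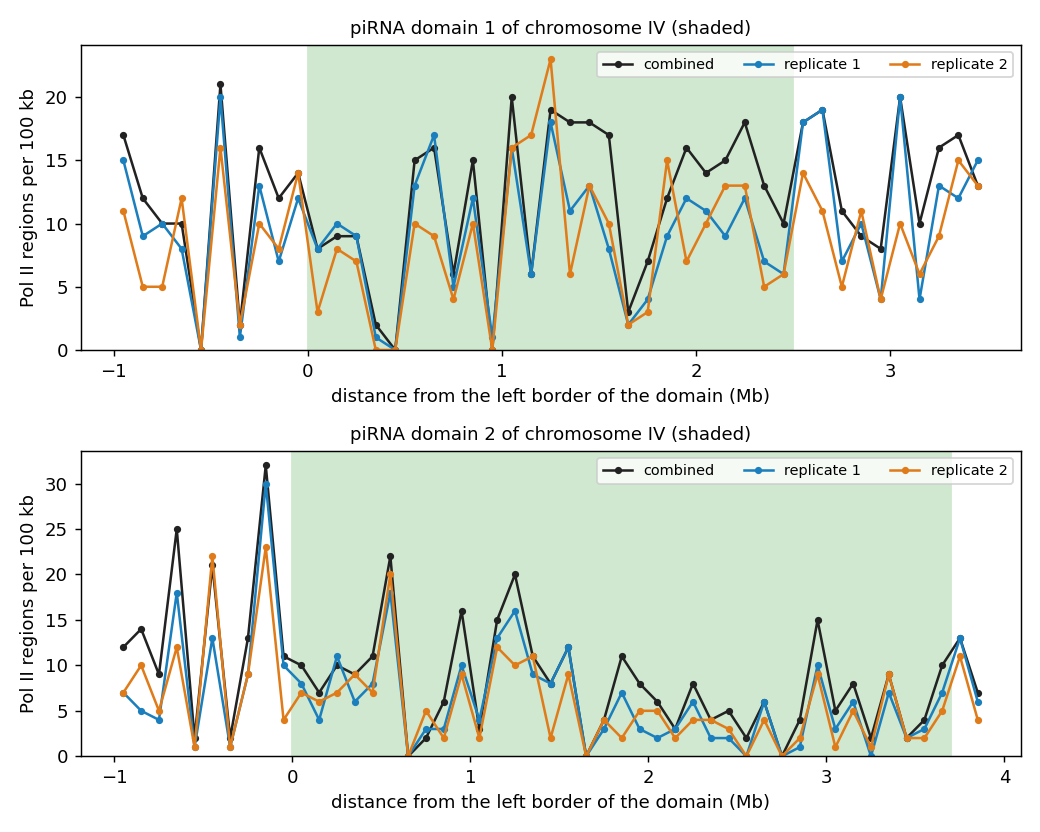
Pol II regions per window of 100 kb against the distance from the left border of domain 1 (top) and domain 2 (bottom), with each domain shaded and 1 Mb on either side where the chromosome allows. All 3 lists have windows at 0 inside both domains, and few regions along the right part of domain 2. The window 3900001 to 4000000, to the left of domain 1, is also at 0 in all 3 lists.

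Much of the length of domain 2 lay in long stretches with no region. A stretch is called free here when no analysed region lies in it. Its minimum length of 25 kb was chosen after the data were seen. Whether stronger regions that were not analysed lie in such stretches was not tested. Free stretches made up 74.5% of domain 2 in the combined list and 80.8% and 80.4% in the replicates, against 41.7%, 51.4% and 52.7% of the rest of the chromosome. In domain 1 they made up 46.0%, 60.9% and 63.1%, above the rest in each list. The part to the left of domain 1 was close to it, at 45.7%, 55.4% and 58.4%. The order of domain 2, domain 1 and the rest was the same at minimum lengths of 10, 50 and 100 kb. At 100 kb the combined list gave 28.3% of domain 2, 12.2% of domain 1 and 3.82% of the rest. Chromosome V as a whole had 74.8% of its length in free stretches of 25 kb or more and chromosome I had 32.7%, so domain 2 resembled the sparsest chromosome in this measure.

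Free stretches were longer in domain 2 than in domain 1 or the rest of the chromosome, but their number per Mb had no stable order. With the 3 lists joined, so that a stretch is free of every listed region, domain 2 had 41 stretches of 25 kb or more, or 11.1 per Mb, with a median of 49.1 kb. Domain 1 had 23, or 9.20 per Mb, with a median of 37.9 kb, and the rest of the chromosome had 103, or 9.13 per Mb, with a median of 37.2 kb. In the replicate lists the order of the numbers turned, with 10.3 stretches per Mb in domain 2, 12 in domain 1 and 11.9 in the rest in replicate 1, and 11.1, 11.2 and 11.9 in replicate 2. With the lists joined, stretches of 100 kb or more numbered 7 in domain 2 on 3.7 Mb, 2 in domain 1 on 2.5 Mb and 4 in the rest on 11.3 Mb. Joining the lists lowered the free share only to 72.3% in domain 2, 44.9% in domain 1 and 38.3% in the rest. A place among the stronger regions left out of all 3 lists would still read as free.

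The longest stretch with no analysed region in any list was in domain 2, 15049949 to 15259479, 209.5 kb long. The next in domain 2 were 16182252 to 16382061 (199.8 kb) and 16021082 to 16166011 (144.9 kb). In domain 1 the longest was 4880872 to 5048317 (167.4 kb), followed by 5395500 to 5495510 (100.0 kb). The longest outside the domains, 3896020 to 4014082, measured 118.1 kb. Whether 36-base reads map uniquely in these stretches was not examined. Nor was it examined whether any of the 262, 152 and 71 stronger regions left out (combined, replicate 1, replicate 2) lie there. A stretch with no region is therefore not shown to lack Pol II.

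**Figure D3:**
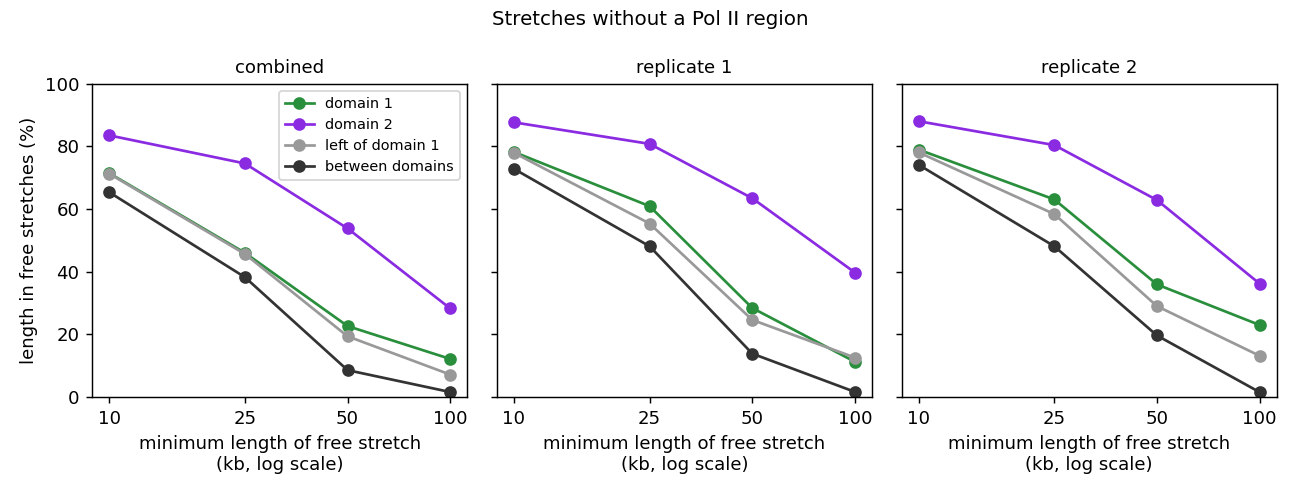
Share of length (percent) that lies in stretches with no analysed Pol II region, against the minimum length of a stretch (kb, log scale). The panels show the combined list and each replicate list. Domain 2 lies above the other 3 parts at every minimum length in every list, for example at 74.5% for 25 kb in the combined list, where domain 1 has 46.0%.

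Per Mb of cluster span, domain 2 held more regions than domain 1 or the part between the domains in each list, a measure that small clusters raise. Members less than 25 kb apart were joined into clusters, which gave 43 clusters in domain 2, 23 in domain 1 and 63 between the domains in the combined list. Within the span of the clusters the combined list held 299 regions per Mb in domain 2, 214 in domain 1 and 236 between the domains. In replicate 1 these values were 294, 228 and 243 and in replicate 2 they were 259, 227 and 203. Domain 2 was the highest of the 3 in each list, whereas domain 1 changed its place. A cluster of 1 region has only its own width as span. Such clusters numbered 9 in domain 2, 2 in domain 1 and 3 between the domains in the combined list. They numbered 8, 6 and 10 in replicate 1 and 12, 3 and 6 in replicate 2. The higher value of domain 2 is therefore not shown to be closer spacing. Clusters of domain 2 had a median of 4 regions in the combined list, against 7 in domain 1 and 9 between the domains. In replicate 1 the medians were 3, 3 and 7, and in replicate 2 they were 3, 6 and 6.5, so clusters of domain 2 were smaller than those between the domains in each list but not smaller than those of domain 1 in replicate 1. The fullest combined cluster of domain 2 held 21 regions in 54.7 kb, 14042191 to 14096936, and was also the fullest in replicate 2, with 19 regions. In replicate 1 the fullest was another, 14953586 to 15049946, with 20 regions. The fullest combined cluster of domain 1 held 40 regions in 191.8 kb, 6472724 to 6664497. It was the fullest in neither replicate, where 5063215 to 5216442 (replicate 1, 33 regions) and 5535838 to 5610704 (replicate 2, 24 regions) were. Median gaps between neighbours were 1975 bp in domain 1, 1879 bp in domain 2 and 1520 bp between the domains in the combined list. They were 2116, 1896 and 1340 bp in replicate 1 and 2760, 3622.5 and 2901.5 bp in replicate 2. The order of the domains thus turned in replicate 2, and the median gap of domain 2 was longer than that between the domains in each list.

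Median widths of members were near those of other regions of the chromosome, whereas the share of wide regions depended on the list. The median width in the combined list was 334 bp in domain 1 (quartiles 144 and 717 bp), 387 bp in domain 2 (192 and 738 bp) and 344 bp in the rest. In replicate 1 the medians were 398, 427.5 and 362 bp, and in replicate 2 they were 378.5, 393 and 343 bp. The median of domain 2 was the highest of the 3 in each list, by less than the distance between quartiles. Regions narrower than the 36-base reads numbered 25 of 286 in domain 1 and 24 of 278 in domain 2, against 107 of 1547 in the rest. Regions of 2500 bp or more numbered 21 in domain 1 (7.34%, Wilson 95% interval 4.85 to 10.96) and 13 in domain 2 (4.68%, 2.75 to 7.84), against 5.17% of the rest and 7.05% of all combined regions. In replicate 1 they numbered 27 in domain 1 (12.3%, 8.57 to 17.3) and 13 in domain 2 (6.31%, 3.72 to 10.5), against 6.14% of the rest (4.95 to 7.58) and 9.66% of all. In replicate 2 they numbered 6 (2.86%, 1.32 to 6.09) and 9 (4.81%, 2.55 to 8.89), against 2.28% of the rest (1.56 to 3.32) and 3.63% of all. Domain 1 thus had a higher share of wide regions than the rest in replicate 1, where the intervals did not overlap. The interval of domain 1 held the share of all regions in each list. Stronger regions that were not analysed are left out of these shares.

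The share of regions with q below 1e-20 was near that of other regions. Median strength was lower in domain 2 than in domain 1 or the rest in each list. Of the members, 70 in domain 1 (24.5%, Wilson 95% interval 19.9 to 29.8) and 62 in domain 2 (22.3%, 17.8 to 27.6) had q below 1e-20, against 26.4% of the rest of the chromosome and 24.2% of all combined regions. In replicate 1 the shares were 24.5% in domain 1, 19.9% in domain 2 and 20.4% in the rest, against 20.4% of all, and in replicate 2 they were 10.0%, 11.2% and 10.7%, against 12.4% of all. The interval of each domain held the share of all regions in each list. The median −log10 q was 7.25 in domain 1, 6.51 in domain 2 and 8.67 in the rest. In replicate 1 it was 6.65, 5.51 and 6.33 and in replicate 2 it was 5.10, 4.55 and 5.02. Domain 2 was thus the weakest of the 3 in each list, and domain 1 was below the rest in the combined list alone. The part left of domain 1 had 7.57, 5.41 and 4.77 (combined, replicate 1, replicate 2), so it was weaker than domain 2 in replicate 1. Per Mb, strong regions analysed here numbered 28.0 in domain 1, 16.8 in domain 2 and 36.3 in the rest. In replicate 1 they numbered 21.6, 11.1 and 23.3 and in replicate 2 they numbered 8.40, 5.68 and 10.8, with domain 2 lowest in each list. These shares and counts leave out the 262, 152 and 71 stronger regions of the lists that were not analysed.

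The strongest members, in a combined list that starts at rank 263, were kilobase-wide regions seen in both replicates. Places with lower q in replicate 1 but no combined region analysed here are given further below. In domain 1 the lowest q belonged to 5602616 to 5608159, 5544 bp wide, with q = 1.41e-287 in the combined list. Its q-value was 6.86e-160 in replicate 1, as 1 region, and 3.27e-59 in replicate 2 for the strongest of 5 pieces. The next were 4649828 to 4653540 (combined q = 3.67e-251), 4747368 to 4749340 (q = 3.34e-188), 6788991 to 6792918 (q = 8.13e-186) and 5386178 to 5390167 (q = 3.15e-167). All 5 had lower q-values in replicate 1 (2.82e-123 or less) than in replicate 2 (2.44e-32 or less). In replicate 1 each was a single region, and in replicate 2 only 4747368 to 4749340 was.

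In domain 2 the lowest q belonged to 13700476 to 13704548, 4073 bp wide, with q = 8.05e-255. It differed least between the replicates among these 5, with q = 3.84e-114 in replicate 1 and 7.81e-115 in replicate 2. The region 14762996 to 14764921, only 1926 bp wide, followed with q = 1.62e-245, and had q = 8.93e-166 in replicate 1 and 3.03e-78 in replicate 2. The other members of the 5 were 13887067 to 13891598 (q = 2.52e-175), 16486729 to 16495205 (q = 8.52e-175) and 13782987 to 13785804 (q = 4.02e-173). Of these 5, 3 lay in the left 500 kb of the domain. The region at 16486729 stood in the sparse right part, was the widest member of domain 2 at 8477 bp, and was split into 2 regions in replicate 1 and 4 in replicate 2. The third widest, 15271729 to 15276196 (4468 bp, q = 1.21e-170), lay to the right of the longest free stretch.

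The widest member of domain 1 stood apart from all others. It ran from 4792748 to 4823216, over 30469 bp, with q = 1.05e-25, and no region of either replicate overlapped it. It lay wholly within a free stretch of replicate 1, 4790991 to 4880556, and within one of replicate 2, 4750297 to 5048321. It is the only region of chromosome IV in any list that a comment in the files marks as altered in structure by the transfer from an earlier build. The region next to it, 4787570 to 4792070 (4501 bp), had q = 3.43e-28 in the combined list and q = 3.37e-65 in replicate 1, and no region in replicate 2.

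Members were found again in the replicates about as often as other regions. Of the members, 117 in domain 1 (40.9%, Wilson 95% interval 35.4 to 46.7) and 111 in domain 2 (39.9%, 34.3 to 45.8) overlapped a region of each replicate by at least 1 bp, against 44.0% of the rest of the chromosome and 44.9% of all combined regions. Replicate 1 alone accounted for 81 and 76 members (28.3% and 27.3%, against 26.8% of all) and replicate 2 alone for 34 and 33 (11.9% each, against 12.2% of all). The remaining 54 and 58 members (18.9% and 20.9%, against 16.1% of all) overlapped neither, and the interval of domain 2 (16.5 to 26.0) lay just above the share of all regions. The other shares of both domains differed from those of all regions by less than their intervals.

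Members in both replicates were wide and strong, and carried most of the bases. Their median width was 846 bp in domain 1 and 910 bp in domain 2, against 717 bp in the rest, and they made up 68.6%, 75.03% and 79.0% of the member bases. The lower share of domain 1 includes the single region of 30469 bp, which no replicate region overlapped. It lay among the 39.4 kb of domain 1 in neither replicate (16.9% of the bases). Members in neither replicate had median widths of 130 bp (129.5) in domain 1 and 187 bp in domain 2. The classes themselves favour this order, since overlap needs only 1 bp and the combined list was called on the merged replicates. The low density of domain 2 was present in every class, with 30.0 members per Mb in both replicates against 60.3 in the rest, and 15.7 per Mb in neither replicate against 23.8. Of the 220 replicate 1 regions in domain 1, 121 overlapped replicate 2 (55.0%), and of the 206 in domain 2, 115 did (55.8%), against 57.8% over all chromosomes. In the other direction 157 of 210 regions (74.8%) and 134 of 187 (71.7%) overlapped replicate 1, against 72.4%.

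Where both replicates had a region, replicate 1 usually had the stronger and wider one. Reciprocal best overlaps between the replicates gave pairs, which numbered 120 in domain 1 and 115 in domain 2. Replicate 1 had the lower q in 73.3% and 74.8% of them and in 77.9% of the 716 pairs of the rest. It was wider in 76.7% (Wilson 95% interval 68.3 to 83.3) and 86.1% (78.6 to 91.3), against 75.6% in the rest (72.3 to 78.6). Median widths in domain 2 were 792 bp in replicate 1 and 448 bp in replicate 2. Across pairs −log10 q correlated with Spearman's rho = 0.696 in domain 1, 0.647 in domain 2 and 0.659 in the rest, as a description of regions from the same 2 libraries.

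**Figure D4:**
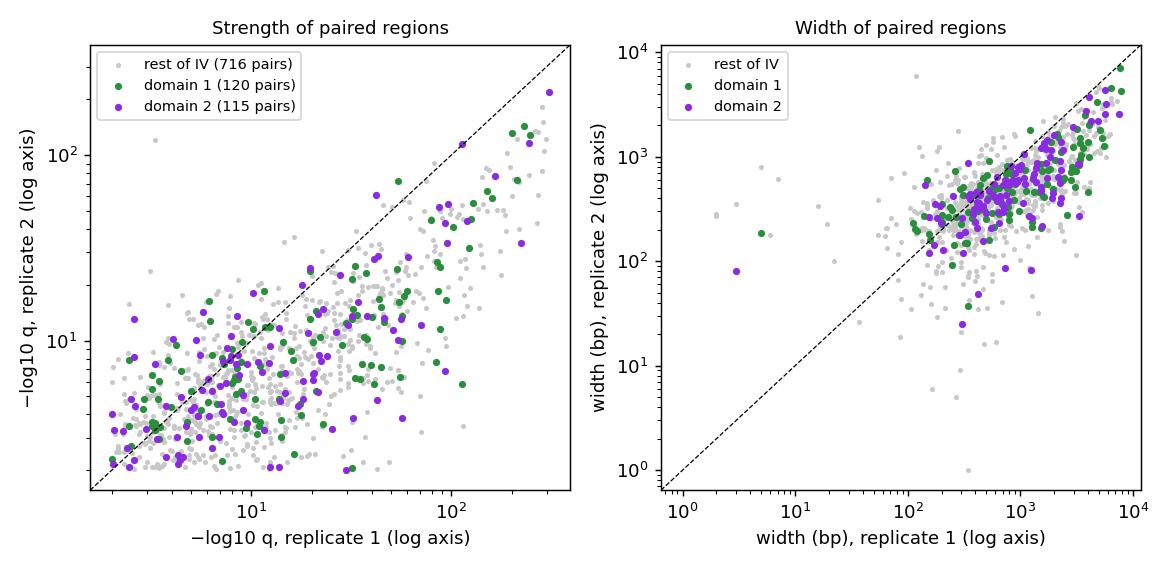
The −log10 q (left) and width in bp (right) of paired regions in replicate 1 (horizontal) and replicate 2 (vertical), both on log axes, with a dashed line of equality. The 120 pairs of domain 1 and 115 of domain 2 lie among the 716 pairs of the rest of chromosome IV, mostly below the line.

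Several of the strongest places of the domains in the replicates had no region in the combined list as analysed here. The combined list starts at rank 263, and whether these places are among its 262 stronger regions that were not analysed was not tested. Replicate 1 had 27 regions in domain 1 and 12 in domain 2 that overlapped nothing in the combined list (12.3% and 5.83%, against 11.4% over all chromosomes), and replicate 2 had 24 and 20 (11.4% and 10.7%, against 13.9%). Of these, 3 and 2 in replicate 1 and 5 and 8 in replicate 2 had q below 1e-20 (1.36% and 0.971% of replicate 1, against 1.69%; 2.38% and 4.28% of replicate 2, against 3.65%). The lowest q among the replicate 1 regions analysed here belonged to a place in the sparse right part of domain 2, 16166012 to 16171721, with q = 8.45e-307. Replicate 2 had it at 16167339 to 16171670 with q = 6.40e-220. Among the combined regions analysed here it lay in a free stretch of 151.3 kb.

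The same held in domain 1. The region 5650688 to 5658408 (7721 bp) had q = 4.98e-232 in replicate 1, and its counterpart in replicate 2, 5650803 to 5657845, had q = 1.18e-144. The region 6653679 to 6661518 (7840 bp) had q = 7.64e-214 in replicate 1 and 1.04e-73 in the strongest of 4 pieces of replicate 2. Replicate 2 also had 5561239 to 5564555 at q = 3.33e-132, a place with q = 1.96e-202 in replicate 1. In domain 2, 14219404 to 14225217 had q = 1.58e-223 in replicate 1 and 2.43e-34 in replicate 2. The replicate 2 region 14609846 to 14618167 (8322 bp), with q = 1.67e-194, overlapped no replicate 1 region analysed here. Whether this place is among the 152 stronger replicate 1 regions that were not analysed was not tested. All 3 replicate 1 regions of domain 1 and both of domain 2 with q below 1e-20 that lacked a combined region overlapped replicate 2. Adding the strong replicate regions moved the free share of domain 2 from 74.5% to 73.0% and its density ratio from 0.548 to 0.550.

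At the borders set by the rule, the nearest regions inside and outside had these q-values, which are a description of the rule's limits. On the left border of domain 1 the first regions inside, 4511080 to 4512535 and 4512822 to 4513970, had q = 1.88e-59 and 1.54e-66, and those outside, 4487066 to 4487070 and 4456235 to 4456318, had q = 2.82e-05 and 9.48e-10. On its right border the last inside, 6959441 to 6959785 and 6958696 to 6959182, had q = 1.06e-05 and 3.57e-12, and the first outside, 7011827 to 7013073 and 7013441 to 7013746, had q = 1.72e-53 and 9.11e-06. At the left border of domain 2 the first inside were 103 and 90 bp wide, 13500602 to 13500704 and 13500977 to 13501066, with q = 1.47e-04 and 8.04e-05. Those outside it, 13483361 to 13484485 and 13482667 to 13482669, had q = 2.70e-13 and 0.00430. At the right border the regions inside, 17189811 to 17189837 and 17120433 to 17120826, had q = 1.49e-08 and 3.89e-11, and those outside, 17207854 to 17207883 and 17208162 to 17208339, had q = 7.77e-08 and 1.39e-11. No region spanned a border.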

How the data were processed

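Regions come from 3 deposited lists called with PeakSeq on WS220, per the file headers. The value of each region is the q-value that the authors deposited, and the inputs served the authors as control. Read counts of the ChIP runs are those of the deposited sample table, and the authors' investigation file names Eland as aligner (version not given in the sources used here). Comment lines show coordinates moved from an earlier build. Everything else was computed in Python (3.11.15) with pandas (2.3.3), scipy (1.17.1) and numpy (2.4.6). Density counts midpoints, and covered share counts bases. Chromosome IV was taken to end at the last base of any region, 17475404. Overlap means at least 1 bp. Ranks came from neighbours with equal products of q and rank (tolerance 1e-11, 2000 starting ranks tried). Functions were checked on simulated data, with counts, cover, overlap, free stretches and ranks recovered in 20 of 20 lists.

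The members, lists and settings were chosen with earlier results of these data known. Named regions are, for each domain, the 5 with the lowest q, the 3 widest, the 2 nearest each border on either side, the longest gap, and the 2 strongest of each replicate outside the combined list. Other regions and stretches were chosen after their values were seen. Alternatives were a stricter q, merged regions, moved borders, each replicate alone, added replicate regions, another comparison stretch and stricter overlap.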

Additional observations from a re-analysis of the deposited data

How the results depend on the processing

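The density ratios of both domains to the rest of chromosome IV, and the covered ratio of domain 2, stayed below 1 under every alternative run. With q below 1e-05, the density ratio was 0.704 in domain 1 and 0.440 in domain 2, the covered ratio of domain 2 was 0.553, median widths were 598 and 651 bp, median −log10 q was 16.8 and 15.9, and free shares were 62.9% and 83.6%. With regions less than 2000 bp apart merged, density ratios were 0.898 and 0.564, covered ratios 0.949 (domain 1, from above 1 to below) and 0.578, widths 529.5 and 782.5 bp, and −log10 q 10.5 and 10.1. With borders moved inward by 250 kb, domain 2 had a density ratio of 0.558, a covered ratio of 0.615 and a free share of 74.0%, and domain 1 a free share of 42.8%. Against the stretch between the domains alone, density ratios were 0.789 and 0.518 and the covered ratio of domain 2 was 0.565. With strong replicate regions added, the covered ratio of domain 2 was 0.602 and its free share 73.0%. Without its widest region, an alternative chosen like the free stretches after seeing the data, domain 1 had a covered ratio of 0.916. With either replicate left out, in domain 1 the density ratio was 0.771 to 0.829, the covered ratio 0.889 (without replicate 1) to 1.01, the width 378.5 to 398 bp, −log10 q 5.10 to 6.65 and the free share 60.9% to 63.1%. In domain 2 these were 0.488 to 0.499, 0.570 to 0.579, 393 to 427.5 bp, 4.55 to 5.51 and 80.4% to 80.8%. With an overlap of at least 50% of both regions, 18.5% of members in domain 1 and 21.2% in domain 2 were in both replicates. The causes were not tested. No paired analysis was possible because region lists were used for the ChIP group alone and no result comes from a test. Depth limits what the lists show, since a place below the q threshold has no value.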
